A study of Mus musculus with 6 samples.

Results

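Adm2, Adm, Stc1, Stc2, Gdf15 and Fgf21 encode hormones that cells secrete under stress, and these 6 genes were followed here among the 24346 gene symbols measured. They were taken by symbol from the RNA sequencing of parental CT26.mMR1 cells and of M8 cells, with 3 replicates of each line. The parental cells (CT26_cl9 in the labels) are the mouse colorectal tumor line CT26 carrying a retrovirus for mouse MR1, the molecule that presents metabolites to MAIT cells. M8 (CT26_cl9_M8) is a mutant of these cells, made by treatment with ENU (a mutagen, 0.3 mg/mL), cloned by limiting dilution and picked from a screen for the activation of a MAIT cell reporter line and for surface MR1, so that both lines overexpress MR1 and M8 is 1 clone. The set was drawn up with the M8 values of some members already known, so the differences between M8 and parental cells are given for the 6 genes as a description and without a test.

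Adm2 (adrenomedullin 2, also called intermedin) and Adm (adrenomedullin) encode peptides of the calcitonin family that widen blood vessels and signal through the receptor Calcrl together with a Ramp protein. The stanniocalcins Stc1 and Stc2 are glycoproteins linked to calcium and phosphate handling, and Stc2 also inhibits the protease PAPP-A, which frees insulin-like growth factors from their binding proteins. Gdf15 acts on the hindbrain receptor Gfral to lower food intake, and Fgf21 is an endocrine fibroblast growth factor that acts through Fgf receptors with the coreceptor Klb. Stc2, Fgf21, Adm2 and Gdf15 are known targets of the integrated stress response, in which phosphorylation of the translation factor eIF2α raises the transcription factor Atf4, while Adm and Stc1 are known to respond to low oxygen.

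The 6 libraries held an estimated 23.8 to 27.0 M mapped reads in parental cells and 19.4 to 22.0 M in M8, read from the steps of low FPKM values (read fragments scaled by exon length and by library size). Mr1 lay between 1046 and 1139 FPKM in the parental line and between 1034 and 1095 FPKM in M8. Of 10 markers of colon epithelium, Epcam, Cdh1, Krt19 and Cdx2 were listed at 0 in all 6 samples, and Krt18, Krt20 and Lgals4 were the only ones with a mean of at least 1 FPKM. Krt20 and Lgals4 were lower in M8 (log2 fold changes -0.50 and -0.66, limma adjusted p = 0.00438 and 0.00728), while Krt18, the most abundant, went from 32.5 ± 6.97 to 36.4 ± 1.85 FPKM (SD, n = 3 each; log2 fold change 0.18, limma adjusted p = 0.321). The part of these markers in the differences below was not tested. The summed level of 6 leukocyte markers was 0.180 to 0.567 FPKM in the parental samples against 0.0632 to 0.312 FPKM in those of M8, and that of 5 endothelial markers was 0.235 to 0.338 FPKM against 0.235 to 0.625 FPKM.

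The 6 genes lie on separate loci in the mouse genome GRCm38 (mm10) as annotated by RefSeq. Adm2 lies on chromosome 15 from 89322720 to 89324731, Stc2 on chromosome 11 from 31359441 to 31370061, Stc1 on chromosome 14 from 69029289 to 69041401 and Gdf15 on chromosome 8 from 70629393 to 70632470. Fgf21 (45613890 to 45615490) and Adm (110627657 to 110629820) are both on chromosome 7. RefSeq places the noncoding gene Gm28863 over Adm and Gm41192 over Stc1. The sources used here do not state whether reads were counted by strand, so reads of Gm28863 may be mixed into the Adm value. Stc1 was listed at 0 FPKM in all 6 samples.

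The promoters of Adm2 and Stc2, whose values separated the lines, and of Fgf21, which held a match to the Atf4 response element core, are shown from RefSeq (GRCm38.p6), from 250 bases before to 50 bases after the start of the transcript. Capitals mark matches to the 5 motifs searched on both strands, which were TGATGNAA (the core of the C/EBP-ATF response element bound by Atf4), TGACGTCA (cAMP response element), the ER stress response element, ACGTG (a core of the hypoxia response element) and its other core GCGTG.
Adm2, chr15:89322470-89322769, plus strand: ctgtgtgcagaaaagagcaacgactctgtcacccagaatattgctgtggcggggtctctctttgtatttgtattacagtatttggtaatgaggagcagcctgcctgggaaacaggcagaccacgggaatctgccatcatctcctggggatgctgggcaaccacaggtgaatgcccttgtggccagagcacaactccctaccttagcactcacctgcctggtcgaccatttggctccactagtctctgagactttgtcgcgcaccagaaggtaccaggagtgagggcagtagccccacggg
Stc2, chr11:31370012-31370311, minus strand: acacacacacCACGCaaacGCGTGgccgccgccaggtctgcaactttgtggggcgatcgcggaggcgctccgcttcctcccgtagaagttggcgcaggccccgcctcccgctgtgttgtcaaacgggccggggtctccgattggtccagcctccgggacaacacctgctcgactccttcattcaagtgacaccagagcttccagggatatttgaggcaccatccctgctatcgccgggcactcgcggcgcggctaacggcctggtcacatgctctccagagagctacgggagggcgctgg
Fgf21, chr7:45615441-45615740, minus strand: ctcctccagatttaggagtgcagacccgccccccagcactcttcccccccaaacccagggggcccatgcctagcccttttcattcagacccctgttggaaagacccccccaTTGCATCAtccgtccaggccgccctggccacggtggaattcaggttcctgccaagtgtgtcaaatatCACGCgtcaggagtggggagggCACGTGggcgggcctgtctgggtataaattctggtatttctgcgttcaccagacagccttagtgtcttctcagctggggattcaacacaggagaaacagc
A window was given for 5 of the 6 genes, and Gdf15 had a pair of them, which makes 6 windows. Fgf21 held the only match to TGATGNAA among these 6 windows, read on the opposite strand as TTGCATCA at positions -139 to -132 relative to the start, and 3.97% of all 32851 windows hold one. Fgf21 also held both hypoxia cores, and its ACGTG overlapped a match of the same core on the opposite strand. The core GCGTG was found in the windows of Adm, Stc2 and Fgf21 (32.4% of all windows), and ACGTG in those of Fgf21 and of 1 Gdf15 start (19.6% of all windows). The Adm2 window held no match to the 5 motifs, and TGACGTCA and the ER stress response element were in none of the 6 windows (1.79% and 0.119% of all windows). A match is a stretch of letters, and no binding was measured.

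Among the 4 hormones above the filter of 1 FPKM, Adm2 had the largest difference between the lines. Its FPKM values were 5.29, 6.03 and 8.33 in parental replicates 1 to 3 and 14.3, 16.2 and 15.6 in M8 replicates 1 to 3. The lowest M8 value thus lay well above the highest parental value, which was that of replicate 3. The mean went from 6.55 ± 1.58 to 15.4 ± 1.0 FPKM (± SD of 3 replicates), a ratio of 2.35 and a log2 fold change of 1.13 (standard error 0.12) on the log2(FPKM + 1) scale, which understates the change of genes with low values. This was the tenth largest increase among the 10597 genes with a mean of at least 1 FPKM, and 20 of these genes (0.189%) had a ratio of 2 or more. These values helped to choose the gene and carry no test. In bulk RNA a difference in the number of cells that express a gene and a difference in RNA per cell cannot be told apart, and a difference between the lines cannot be told apart from one of the M8 clone.

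The Adm2 values rested on an estimated 146, 158 and 247 reads in the parental replicates and 345, 346 and 365 reads in M8. With so many reads, counting error alone would give a coefficient of variation of 7.38% in parental cells and 5.33% in M8. The observed coefficients were 24.2% and 6.51%, so that the parental replicates spread by more than counting error gives, while those of M8 were close to it. Genes within 1.5-fold of its parental level had a median coefficient of 6.83% in parental cells. Adm2 moved from the 67.3rd to the 78.2nd percentile of all gene symbols by mean level.

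Its relative Adm was far weaker. The FPKM values of Adm were 0.707, 1.35 and 1.19 in parental cells and 1.27, 2.18 and 1.28 in M8, and the groups overlapped, since parental replicate 2 exceeded M8 replicates 1 and 3. The means were 1.08 ± 0.335 and 1.58 ± 0.525 FPKM (± SD of 3 replicates), with a log2 fold change of 0.30 (standard error 0.17). An estimated 21 to 50 reads lay behind each value, and M8 replicate 2 lay apart from the other M8 samples. FPKM values are scaled by transcript length, so the 2 genes can be compared roughly within a sample. The ratio is limited by the few reads of Adm and by the noncoding gene that overlaps it. The level of Adm2 was 4.47 to 7.48 times that of Adm in parental cells and 7.44 to 12.2 times in M8, and these ranges overlapped slightly.

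**Figure D1:**
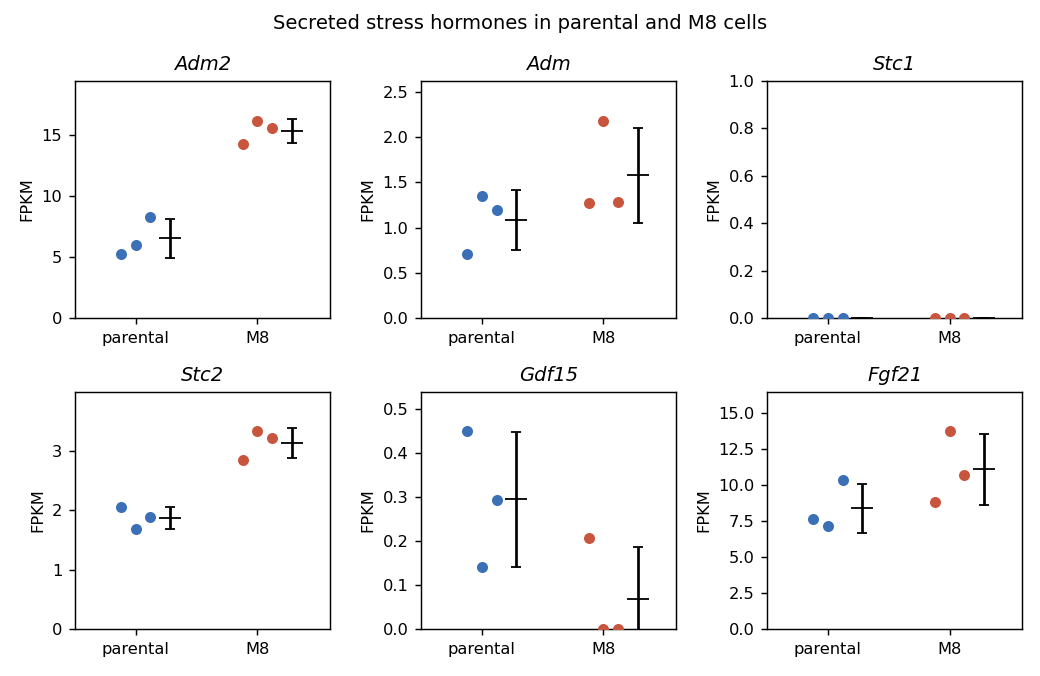
FPKM of the 6 hormone genes in each replicate (dots) of parental (blue) and M8 (red) cells, with the mean and SD of 3 replicates beside them; each panel has its own linear axis from 0, and the SD of Gdf15 in M8 is drawn only down to 0. The M8 values of Adm2 (14.3 to 16.2) and Stc2 (2.85 to 3.33) lie above all parental values, those of Adm and Fgf21 overlap them, and Stc1 is listed at 0 throughout.

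The stanniocalcins differed from each other in both lines. Stc2 had 2.05, 1.68 and 1.89 FPKM in the parental line, and M8 had 2.85, 3.33 and 3.22 FPKM, without overlap. Its mean went from 1.87 ± 0.182 to 3.13 ± 0.250 FPKM (± SD of 3 replicates), a ratio of 1.67 and a log2 fold change of 0.53 (standard error 0.091). Its longest protein-coding transcript with a RefSeq match has 3940 bases in the GENCODE annotation. If all reads came from it, an estimated 150 to 256 reads supported each value, but 5 transcripts are annotated. The coefficients of variation of Stc2, 9.70% in parental cells and 7.98% in M8, were close to the 7.51% and 6.40% that counting error gives at these estimated reads.
Stc1, in contrast, was listed at 0 FPKM in all 6 samples. For its transcript of 4197 bases, 3 reads would have given 0.028 to 0.039 FPKM, depending on the library, and this limit covers counting error only.

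Gdf15 was low in both lines, with a mean of 0.182 FPKM over the 6 samples, which puts it under the limit of 1 FPKM used here. Adm was the member just above this limit, with a mean of 1.33 FPKM. The values of Gdf15 were 0.450, 0.142 and 0.294 FPKM in the parental line, and M8 had 0.206, 0 and 0 FPKM, so that M8 replicates 2 and 3 had none and M8 replicate 1 exceeded parental replicate 2. These correspond to an estimated 15, 5 and 11 reads in parental cells and 6 reads in M8 replicate 1, and the M8 libraries were also less deep, whose part in the difference was not tested. On the log2(FPKM + 1) scale the M8 mean was -0.28 relative to the parental mean, a value that depends on the pseudocount at so few reads.

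Fgf21, a hormone made mainly by the liver, was at a level similar to Adm2 in parental tumor cells. Its FPKM values were 7.62, 7.14 and 10.3 in parental cells and 8.77, 13.7 and 10.7 in M8. M8 replicate 1 lay below parental replicate 3, and the groups overlapped. The means were 8.35 ± 1.70 and 11.0 ± 2.47 FPKM (± SD of 3 replicates), a ratio of 1.32 with a log2 fold change of 0.36 (standard error 0.15). Its coefficient of variation was 20.3% in parental cells and 22.4% in M8, against 7.90% and 7.64% from counting error at 128 to 209 estimated reads. Genes within 1.5-fold of its parental level had medians of 6.29% and 5.29%, so Fgf21 varied more between replicates of a line than most genes of its level.

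In parental cells the order of the mean levels was Fgf21, Adm2, Stc2, Adm, Gdf15 and Stc1, and in M8 it was Adm2, Fgf21, Stc2, Adm, Gdf15 and Stc1. The parental ranges of Fgf21 and Adm2 overlapped (7.14 to 10.3 and 5.29 to 8.33 FPKM), but within each of the 3 parental samples Fgf21 was the higher, by 1.18 to 1.44 times. In each of the 3 M8 samples it was the lower, at 0.615 to 0.842 of the Adm2 level. The ranges of the other neighbours in the order did not overlap, except those of Gdf15 and Stc1 in M8, where both reached 0. Only 4 of the 6 genes passed the filter of a mean of at least 1 FPKM, and no call is given for them, since their values helped to choose them. Over all 10597 genes in the fit, at a limma adjusted p below 0.1, 21.2% were higher in M8, 16.5% were lower and 37.7% passed in either direction. The balance depends on the scaling, since 2250 genes were higher and 1745 lower here, against 1157 and 3236 with upper-quartile scaling and 1658 and 2209 with TPM. The M8 values lay above all parental values for 2 of the 4 members, Adm2 and Stc2, from which nothing is read, and for 24.8% of all genes tested, while 20.4% had all M8 values below and 45.2% did not overlap in either direction.

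**Figure D2:**
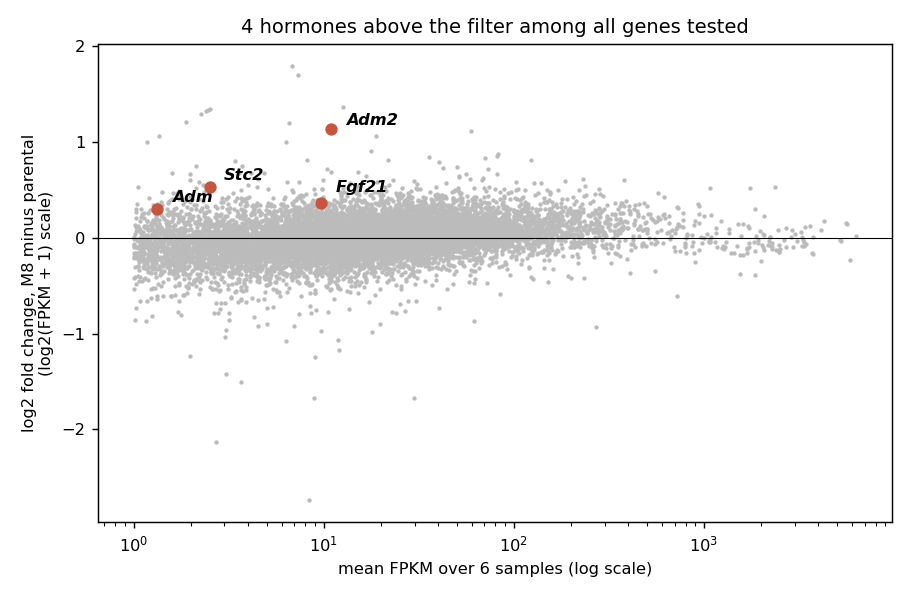
Log2 fold change between M8 and parental cells (M8 minus parental, on the log2(FPKM + 1) scale) against the mean FPKM of 6 samples on a log axis, for the 10597 genes tested (grey) and the 4 hormone genes above the filter (red). Adm2 (1.13) stands near the upper edge of the genes of its level, Stc2 (0.53) is lower, and Fgf21 (0.36) and Adm (0.30) are nearer the bulk.

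The tested neighbours of Adm2 and Stc2 on the chromosome had smaller differences than these genes. The values of Adm2 and Stc2 helped to choose them, so smaller differences nearby were likely beforehand and nothing is read from this. Within 500 kb on each side of Adm2, 18 other genes were tested, of which 5 were higher in M8 and 1 was lower, with a median log2 fold change of 0.033 and a range from -0.48 to 0.34, the highest being that of Lmf2. Of 5 tested neighbours of Stc2, 1 was higher and 2 were lower (median log2 fold change -0.15, range -0.27 to 0.19). Of 31 around Fgf21, 11 were higher and 8 lower (median -0.0080), and their range, from -0.48 (Flt3l) to 0.40 (Aldh16a1), reached beyond the 0.36 of Fgf21 itself. Of 7 around Adm, 1 was higher and 1 lower (median -0.041, range -0.25 to 0.25). Over all genes tested, 21.2% were higher and 16.5% lower, with a median of 0.0069.

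The genes whose sample pattern was most like that of a hormone were found by the mean absolute difference between centred log2(FPKM + 1) values over the 6 samples. This measure includes the difference between the lines, which helped to choose Adm2 and Stc2. For these hormones, genes with a similar log2 fold change thus come out closest, such as Apod (1.11) for Adm2 (1.13). No shared regulation is read from the likeness. Closest to Adm2 was Apod, a lipid-binding apolipoprotein, with a difference of 0.12 against a median of 0.56 over the genes tested. Fbln5, an elastic fiber protein (0.18), and Il1rl1, the receptor of interleukin 33 (0.18), followed. Apod was at 34.2 to 40.3 FPKM in the parental line, and M8 had 76.0 to 85.3 FPKM. For Stc2 the closest was Phpt1, a phosphohistidine phosphatase, with a difference of 0.035, followed by Fam64a and Ifit3. Phpt1 was at 47.7 to 52.6 FPKM in the parental samples and at 71.2 to 73.6 FPKM in those of M8. The patterns closest to Fgf21 were those of the actin-binding drebrin gene Dbn1, of H2-K1 and of Sh3yl1 (0.11 to 0.12). Those closest to Adm were Rerg, Spc24 and Sap30l (0.082 to 0.088).

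The receptors of these hormones were mostly near or at 0 in the tumor cells. Calcrl, the receptor shared by Adm and Adm2, was at 2.16, 2.36 and 2.70 FPKM in the parental line, and M8 had 1.75, 1.84 and 2.2 FPKM, with overlapping groups. It did not pass the threshold (-0.22 ± 0.10 on the log2 scale, with its standard error; limma adjusted p = 0.134). Of its partners, which bring it to the cell surface and set its ligand preference, Ramp1 and Ramp2 were listed at 0 in every sample and Ramp3 ranged from 0.18 to 0.53 FPKM. Ackr3, a scavenger receptor that takes up adrenomedullin, was at 7.04 ± 0.812 FPKM (SD, n = 3) in the parental line, against 6.23 ± 0.250 in M8 (log2 fold change -0.15, limma adjusted p = 0.197). Calcrl passed with upper-quartile scaling (limma adjusted p = 0.0585), with eBayes without a trend (0.0795) and without M8 replicate 3 (0.0945), and Ackr3 with upper-quartile scaling (0.0559) and without parental replicate 1 (0.0398).

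Fgfr1, a tyrosine kinase through which Fgf21 acts when Klb is present, was the most abundant receptor here. It had 30.1, 32.8 and 31.3 FPKM in the parental line, and M8 had 33.6, 37.0 and 34.7 FPKM, which differs by 0.16 ± 0.052 (standard error) on the log2 scale, with a limma adjusted p = 0.0482. Each M8 value lay above all parental values, but the call was lost with TPM (adjusted p = 0.106), upper-quartile scaling (0.294) or quantile normalization (0.150) and without parental replicate 1 (0.115) or M8 replicate 2 (0.167) in limma. Klb had at most 0.048 FPKM and its relative Kl at most 0.015 FPKM in any sample. Fgfr2 was listed at 0, and Fgfr3 and Fgfr4 had at most 0.082 and 0.043 FPKM. Gfral, the Gdf15 receptor, was at 0.213 ± 0.128 FPKM (SD, n = 3) in the parental line, against 0.0782 ± 0.0682 in M8, and its coreceptor Ret was above 0 in a single parental sample. Of the 13 receptor genes, 3 were tested, 1 was higher and 0 were lower by limma, also at an unadjusted p below 0.05, against 21.2% and 16.5% of all genes tested, and their median log2 fold change was -0.15. With upper-quartile scaling 0 were higher and 2, Calcrl and Ackr3, were lower.
Among the hormones' own relatives, Calca, Iapp, Fgf15 and Fgf23 were listed at 0 in all samples. Calcb, a calcitonin gene-related peptide, was at 1.65 ± 0.323 FPKM (SD, n = 3) in the parental line, against 1.36 ± 0.463 in M8 (log2 fold change -0.18, limma adjusted p = 0.405).

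**Figure D3:**
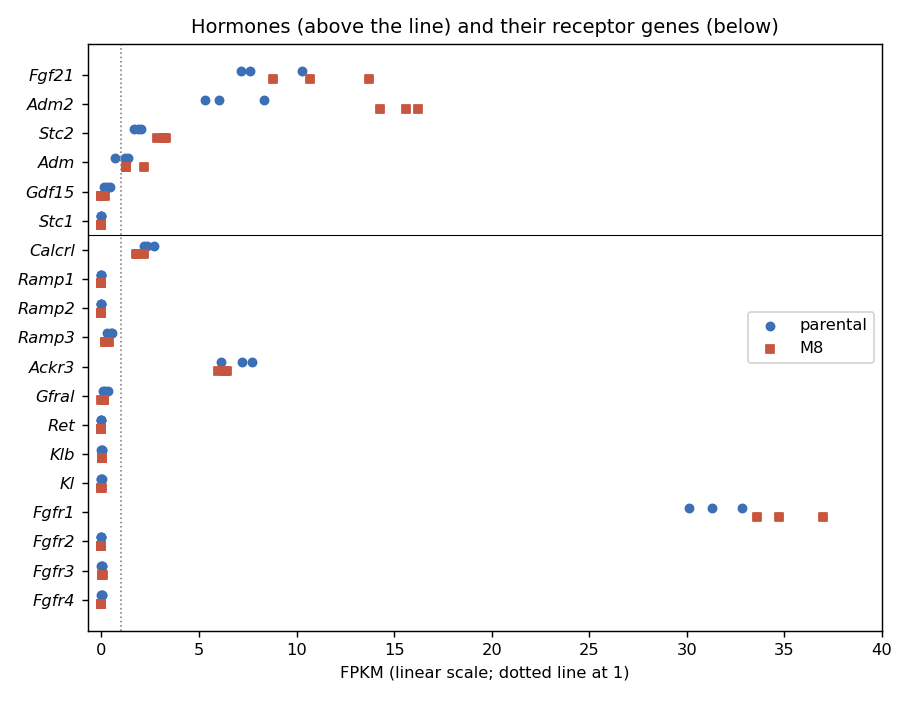
FPKM of the hormone genes (above the line) and of 13 receptor genes (below) in each replicate of parental (blue circles) and M8 (red squares) cells on a linear axis, with a dotted line at 1 FPKM. Fgfr1 lies between 30.1 and 37.0 FPKM and Ackr3 and Calcrl above 1, while the Ramp genes, Gfral, Ret, Klb and Kl lie below 1 in all samples.

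Of 15 genes for processing enzymes, for the PAPP-A proteases and binding proteins linked to Stc2 and for store-operated calcium entry, 8 were tested, 2 were higher in M8 and 2 were lower (median log2 fold change -0.029), against 21.2% and 16.5% of all genes tested. With upper-quartile scaling 1 was higher and 4 were lower (median -0.11, against -0.072 over all genes), and with quantile normalization 1 and 1. Igfbp4, an insulin-like growth factor binding protein that PAPP-A cleaves and Stc2 thereby protects, fell from 145 ± 8.27 to 107 ± 4.32 FPKM (± SD of 3 replicates). It thus fell by 0.44 ± 0.051 on the log2 scale (± standard error; limma adjusted p = 0.000671). The gene of the protease itself, Pappa, was listed at 0 in all samples, Igfbp5 likewise, and Pappa2 had a mean of 0.367 FPKM. Pcsk7, a proprotein convertase, rose from 8.56 ± 0.188 to 11.1 ± 0.695 FPKM (SD, n = 3 each; log2 fold change 0.34, limma adjusted p = 0.00356). Pam, the enzyme that amidates adrenomedullin peptides, rose by less, with a log2 fold change of 0.18 (limma adjusted p = 0.0280, but 0.184 with upper-quartile scaling and 0.136 with quantile normalization). Fam20c, a kinase of secreted proteins, had a log2 fold change of -0.17 (limma adjusted p = 0.0679). That call was lost without parental replicate 1 or 3 or without M8 replicate 1 or 2, with limma adjusted p-values of 0.112, 0.169, 0.223 and 0.128, and also without a filter (0.125) and with quantile normalization (0.104). The convertase Furin (log2 fold change -0.04, limma adjusted p = 0.448) and the calcium sensor Stim2 (-0.07, 0.338) did not pass, except with upper-quartile scaling (0.0638 and 0.0535).

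Of 17 genes of stress response signalling, which include targets of Atf4 such as Trib3, 16 were tested. Of these, 7 were higher in M8 while none was lower by limma, also at an unadjusted p below 0.05. Over all genes tested, 21.2% were higher, 16.5% lower and 37.7% called in either direction. The median log2 fold change of the group was 0.087 against 0.0069 over all genes. With upper-quartile scaling 4 were higher and 2 lower (median 0.00098), and with quantile normalization 5 and 2 (median 0.023), so the balance of this group depends on the scaling.
Atf4 itself was at 561, 543 and 568 FPKM in the parental line, and M8 had 649, 680 and 639 FPKM, without overlap (0.24 ± 0.041 on the log2 scale, with its standard error; limma adjusted p = 0.00330). With upper-quartile scaling its log2 fold change was 0.15 and with quantile normalization 0.12 (limma adjusted p = 0.0135 and 0.0583). Cebpb, a C/EBP factor that can pair with Atf4, rose most in this group, from 55.4 ± 11.9 to 90.8 ± 9.66 FPKM (SD, n = 3 each; log2 fold change 0.72, limma adjusted p = 0.00498). Atf5, a related factor translated under stress, rose by 0.25 on the log2 scale (limma adjusted p = 0.0151), or by 0.16 and 0.14 under these scalings, and Eif2ak2, the double-stranded RNA sensor among the eIF2α kinases, rose by 0.31 on that scale (limma adjusted p = 0.00137). Ddit3, which encodes the death-linked factor CHOP, was at 259 ± 25.2 and 269 ± 2.66 FPKM (SD, n = 3 each; log2 fold change 0.05, limma adjusted p = 0.551), and its log2 fold change was -0.03 with both upper-quartile scaling and quantile normalization and -0.02 without parental replicate 2. Trib3, a pseudokinase induced by Atf4, was at 167 ± 6.83 and 169 ± 4.51 FPKM (SD, n = 3 each; log2 fold change 0.02, limma adjusted p = 0.748), and with quantile normalization its log2 fold change was -0.09 (limma adjusted p = 0.0917). It was also below 0 with TPM (-0.02), with upper-quartile scaling (-0.07) and without parental replicate 1 (-0.01). Atf3, another stress-induced factor, had at most 0.063 FPKM in any sample; it was singled out after its values were seen.

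Of 11 regulators of hypoxia and other stresses, 8 were tested, 1 was higher and 2 were lower, against 21.2% and 16.5% of all genes tested. Hif1a, the oxygen-regulated factor behind Adm, had a log2 fold change of 0.04 (limma adjusted p = 0.472) and was singled out after its values were seen. Neither protein, pathway activity nor secreted hormone was measured in these RNA data. Trp53, which activates Gdf15, was at 98.9 to 104 FPKM in the parental samples and at 117 to 119 FPKM in those of M8 (log2 fold change 0.22, limma adjusted p = 0.00329), or 0.13 with upper-quartile scaling and 0.11 with quantile normalization. Egr1, an immediate early factor, was at 114, 60.7 and 69.6 FPKM in the parental line, and M8 had 43.2, 43.0 and 41.4 FPKM, a log2 fold change of -0.87 (limma adjusted p = 0.00770), or -0.60 without parental replicate 1. Klf4, a zinc finger factor of gut epithelium, fell as well (log2 fold change -0.27, limma adjusted p = 0.00121). Nfe2l2, the regulator of antioxidant genes (limma adjusted p = 0.275), and the oxygen sensor Egln1 (0.818, but 0.0476 without parental replicate 1) did not pass.

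Other secreted factors linked to stress moved both ways. Of 15 genes, 11 were tested, 2 were higher in M8 and 4 were lower (median log2 fold change -0.025), against 21.2% and 16.5% of all genes tested, and 3 were called without M8 replicate 1. Angptl4, an inhibitor of lipoprotein lipase, rose from 2.52 ± 0.341 to 4.90 ± 0.705 FPKM (SD, n = 3 each). This was a ratio of 1.95 and a log2 fold change of 0.74 (limma adjusted p = 0.00176). Fst, the activin antagonist follistatin, had a log2 fold change of 0.36 (limma adjusted p = 0.0491). Its call was lost without a filter (0.137), without parental replicate 1 (0.125) or 2 (0.151) and without M8 replicate 1 (0.116) or 3 (0.135). Angptl6 fell from 35.7 ± 2.40 to 29.3 ± 2.14 FPKM (SD, n = 3 each; log2 fold change -0.28, limma adjusted p = 0.0127). Nucb2, the precursor of nesfatin, had a log2 fold change of -0.21 (limma adjusted p = 0.0306, and 0.103 without M8 replicate 1). The secreted ER stress proteins Manf (66.3 to 74.1 FPKM in parental cells, 70.1 to 75.7 FPKM in M8, limma adjusted p = 0.535) and Creld2 (limma adjusted p = 0.435) did not pass.

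**Figure D4:**
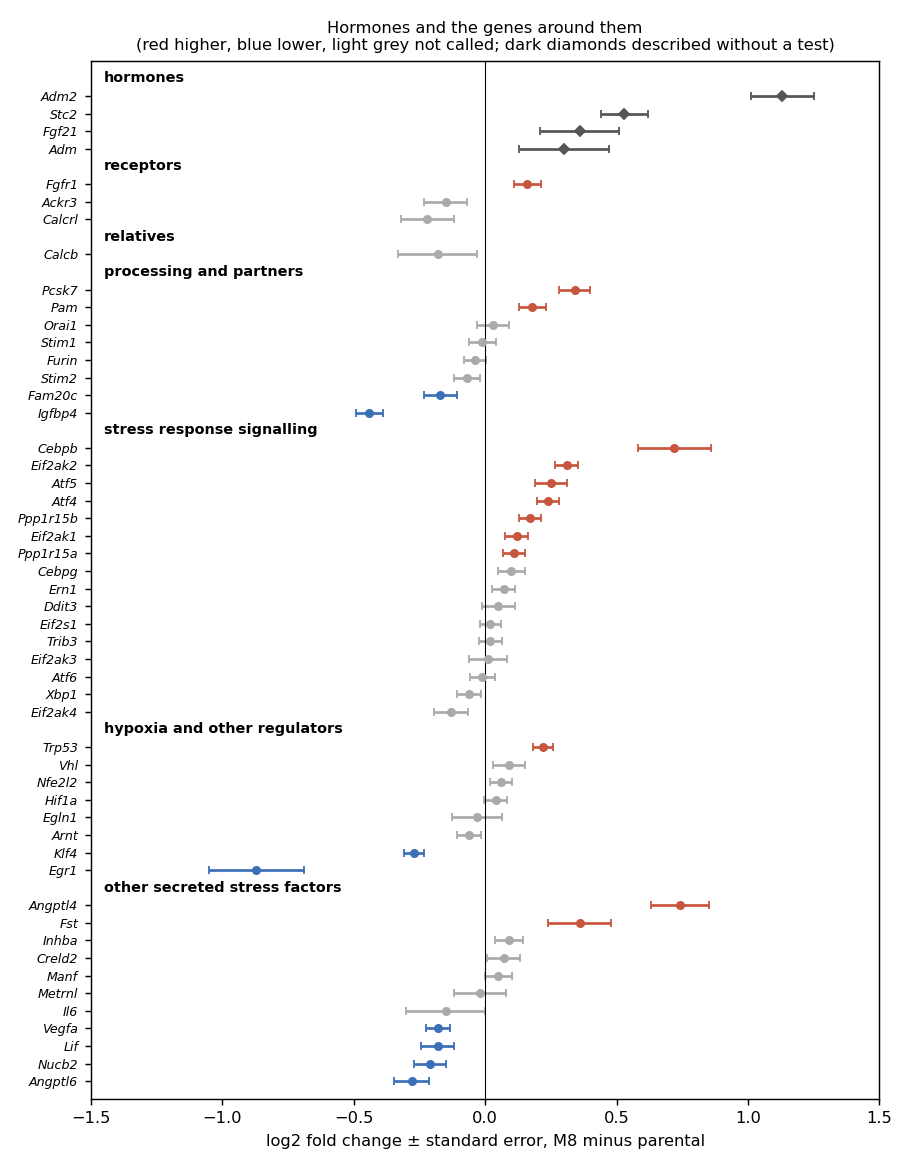
Log2 fold change between M8 and parental cells with its limma standard error for the tested genes of each group, sorted within groups; red genes were higher and blue genes lower at a limma adjusted p below 0.1, light grey genes did not pass, and the dark diamonds of the hormones carry no test. Adm2 (1.13) lies to the right of the other genes, Angptl4 (0.74) and Cebpb (0.72) come next, and Egr1 (-0.87) lies furthest to the left.

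The differences of the 4 hormones kept their sign under each alternative processing. Adm2 ranged from 1.01 to 1.30 over 16 alternatives and Stc2 from 0.46 to 0.71 over 15. Fgf21 ranged from 0.21 to 0.50 over 16 alternatives, and Adm from 0.14 to 0.50 over 15. The lowest value of Adm2 came without parental replicate 1 and the highest without parental replicate 3, and both Fgf21 and Adm fell to their lowest values (0.21 and 0.14) when M8 replicate 2 was left out.

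**Figure D5:**
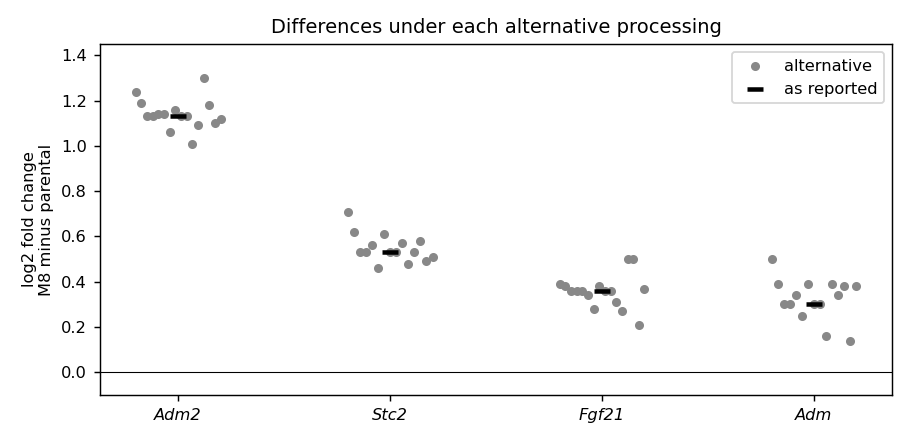
Log2 fold change between M8 and parental cells of the 4 hormones above the filter, as reported (black bar) and under each alternative (grey dots: pseudocounts, filters, scalings, eBayes without a trend, the replicate block and each sample left out). The dots of Adm2 (1.01 to 1.30) stay apart from those of Stc2 (0.46 to 0.71), which overlap those of Fgf21 and Adm.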

How the data were processed

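RNA of 3 parental and 3 M8 replicates was sequenced from stranded mRNA libraries with single reads of 101 bases. The authors aligned the reads to mm10 with TopHat and deposited 1 table per sample of FPKM values. The sources differ on the tools, since the methods name TopHat 2.2.1 and Cufflinks 2.2.1 and the submitters' processing notes TopHat2 2.1.1, Bowtie2 2.2.8 and Cuffdiff 2.2.1. The annotation is not given in the sources used here. The study tested read counts, which were not used here.

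Here log2(FPKM + 1) of the 10597 of 24346 genes with a mean of at least 1 FPKM was fitted with limma 3.58.1 (R 4.3.3, eBayes with a trend), with Benjamini-Hochberg adjustment over all genes and a threshold of 0.1. The study calls the replicates biological, but the labels do not state separate cultures, so p-values measure only the spread between these samples, which may be technical. Read numbers were estimated from the steps of low FPKM values, using transcript lengths minus 200 bases; 80.1 to 84.3% of low values lay within 0.2 of a whole read. Estimated reads and floors of 3 reads used 1 transcript per hormone, the longest protein-coding one with a RefSeq match, and cover counting error only.

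The members and gene lists were chosen with earlier results of these data known. Named were the 6 hormones, all receptors, up to 4 called genes with the largest changes and the 2 most abundant uncalled genes of each other list, and the 3 genes most like each hormone, predicted genes left out. Alternatives were pseudocounts of 0.1 and 0.5, filters (none or 5 FPKM), median centring, TPM, upper-quartile and quantile scaling, eBayes without a trend, a replicate block, a threshold of 0.05 and each sample left out.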

Additional observations from a re-analysis of the deposited data

How the results depend on the processing

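Of the values and counts that answer a comparison, 198 alternatives stayed close to the reported value and 15 moved. With upper-quartile scaling 1157 genes were higher in M8 and 3236 lower. With single samples left out, 1591 to 2100 genes were higher and 1142 to 1681 lower, the lowest of both without M8 replicate 1. The number of receptor genes called, 1 as reported, was 0 with TPM, 2 with upper-quartile scaling (Calcrl and Ackr3, both lower, in place of Fgfr1), 0 with quantile normalization and 2 with eBayes without a trend, and 0 to 2 with single samples left out. The processing list had 2 genes called with quantile normalization, against 4, and the other secreted factors 3 to 6 with single samples left out, against 6. The log2 fold change of Stc2 was 0.71 and 0.62 with pseudocounts of 0.1 and 0.5, and that of Gdf15, -0.28 as reported, was -1.37 and -0.49. Trib3, which had no call as reported, was lower with quantile normalization (-0.09, limma adjusted p = 0.0917), and had no call under the other alternatives. Among the named genes other than the hormones, for which no call is given, 34 alternatives lost a call and 9 gained one in the same direction, besides that of Trib3 with the opposite sign. The cause was not tested. A filter at 5 FPKM leaves no value for Adm, Stc2 and Gdf15, and Stc1 has none under any setting.

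The replicate numbers did not pair the samples, since the deviations of same-numbered samples correlated at 0.10, -0.11 and -0.033 over genes, and only parental replicate 1 correlated best with its own number. With the replicate block 2171 genes were higher and 1688 lower, and the log2 fold changes of Adm2, Stc2, Fgf21 and Adm were 1.13, 0.53, 0.36 and 0.30. Depth limits the genes with few reads, which are Gdf15 (at most 15 estimated reads) and Adm (at most 50).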
